A study of Mus musculus with 15 samples.

Results

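The interaction of genotype with tamoxifen was measured in the tibialis anterior, a fast hindlimb muscle, as the tamoxifen effect in *Mtm1*-deficient mice minus the tamoxifen effect in wild-type mice, gene by gene. A positive value means that a transcript stood higher after tamoxifen in the mutant, relative to its untreated control, than it did in the wild type, and a negative value means the reverse. Genes called higher or lower in the mutant below are those with a positive or a negative value, whatever their level in untreated muscle. The quantity draws on all 15 of the 15 libraries of the series, 8 from wild-type and 7 from mutant mice. Untreated mice formed the groups WT and Mtm1-/y, with 4 libraries each, and tamoxifen-treated mice formed WT + TAM, with 4, and Mtm1-/y + TAM, with 3. All were male 129Pas mice aged 7 weeks, the Mtm1-/y mice carried the mutation on their only X chromosome, and TAM marks the mice given tamoxifen. The sources used here do not give its dose, route, start or vehicle. Poly(A) RNA of a whole muscle was sequenced for each mouse, so fibre, vessel, nerve, immune and connective tissue cells contributed to each library.

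Myotubularin, the product of *Mtm1*, removes a phosphate from phosphoinositides on endosomal membranes, and its loss causes X-linked myotubular myopathy, with small fibres, misplaced nuclei and disordered triads. Tamoxifen binds oestrogen receptors and acts as an agonist or an antagonist depending on the tissue. A drug can move a gene by the same factor in healthy and in diseased muscle, in which case the interaction is 0 on the log2 scale, or it can move the gene in only 1 genotype or in opposite directions, in which case it is not.

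*Mtm1* itself separated the genotypes as labelled, at 13.5 to 17.7 CPM (counts scaled to a common library total) in the 8 wild-type libraries and at 2.91 to 3.71 CPM in the 7 mutant libraries. Fast fibre genes supplied 157000 to 271000 CPM in every library. Total counts ran from 18042558 to 45823277 per library. In a principal component analysis Mtm1-/y replicate 1 lay alone on the second component and WT + TAM replicate 1 alone on the third. Slow fibre genes averaged 6.23 log2 CPM in WT + TAM replicate 1 against 2.80 to 3.93 in the other 3 libraries of that group, and adipocyte genes averaged 5.07 against 2.44 to 3.41.

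No gene passed the test of the interaction with all 15 libraries. EdgeR's quasi-likelihood test called 0 of 15533 genes (0.0%) at an adjusted p under 0.05, and the smallest adjusted p was 0.176. At an unadjusted p under 0.05 there were 1650 genes (10.6% of those tested), 728 higher in the mutant (4.69%) and 922 lower in the mutant (5.94%). At an unadjusted p under 0.01 there were 399 (2.57%). Limma-voom also called 0, limma-voom with a weight for each library called 6, and DESeq2 called 74 (0.477% of 15501 genes with an adjusted p), 17 of them higher (0.11%) and 57 lower (0.368%) in the mutant. All 74 had an unadjusted edgeR p under 0.05 and 62 were among the 100 smallest edgeR p-values. The split by direction depended on the scaling: 44.1% of the genes at an unadjusted p under 0.05 were higher in the mutant with TMM factors, against 54.5% with upper-quartile factors and 54.1% with limma-voom. For tamoxifen in Mtm1-/y alone the same share was 47.7% with TMM and 58.5% with upper-quartile factors.

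Within each genotype, edgeR called 48 genes for tamoxifen in WT mice (0.309%) and 2 in Mtm1-/y mice (0.0129%). In treated WT mice 937 genes were higher (6.03%) and 820 lower (5.28%) at an unadjusted p under 0.05. In the mutants 861 genes passed (5.54%), 411 of them higher (2.65%) and 450 lower (2.9%). Across the 15533 genes the effects in the 2 genotypes, which share no library, had a Pearson r of 0.0243 and a Spearman rho of -0.134. These are descriptions across genes, which are not independent replicates, and libraries differed in base composition bias, as given further on. Of the 1650 genes at an unadjusted p under 0.05, 861 had a positive estimate in WT and a negative estimate in Mtm1-/y, 678 had the opposite signs, and 111 had the same sign in both. The absolute estimate was larger in WT for 993 of them. For the genes higher in the mutant, untreated WT mice had the highest of the 4 group means at 479 of 728 genes (65.8%), against 29.5% of all genes tested. For the genes lower in the mutant, untreated WT mice had the lowest group mean at 556 of 922 (60.3%), against 26.5% of all genes. The genes were selected on this same contrast, so these shares describe its shape and are not a test. The plot of the effects in both genotypes sets the named genes among all genes tested.

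**Figure D1:**
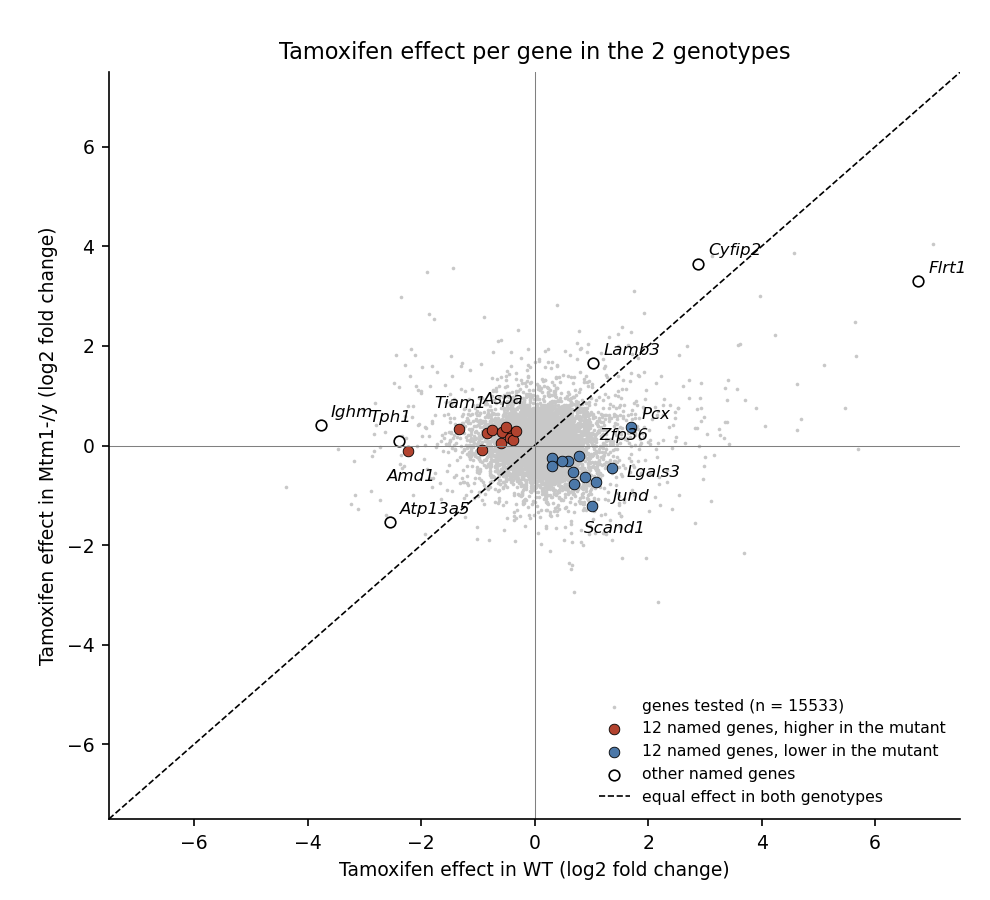
Tamoxifen effect (log2 fold change) in WT on the horizontal axis and in Mtm1-/y on the vertical axis for 15533 genes, with an equal effect on the dashed line. The 12 named genes lower in the mutant lie below the line and the 12 higher in the mutant above it, while *Cyfip2* and *Lamb3* are positive and *Atp13a5* is negative in both genotypes.

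The genes lower in the mutant were led by *Zfp36*, *Jund*, *Romo1* and *Scand1*. The 12 named here were the protein-coding genes of smallest p in this direction at a mean of at least 1 log2 CPM. Their interaction estimates ran from -2.22 to -0.56. Their unadjusted p-values were 3.29e-05 to 0.000483 and their adjusted p-values 0.176 to 0.266 in edgeR's test. WT and WT + TAM values did not overlap at 11 of the 12, and Mtm1-/y and Mtm1-/y + TAM values did not overlap at 6, against 4.22% and 2.38% of all genes in the same directions. Having been picked by p, they had to differ, and these counts are given only to show which genotype moved. DESeq2 called all 12.

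*Zfp36* (chr7:28376784-28380253, minus strand, GRCm38) encodes tristetraprolin, which binds AU-rich elements and speeds the decay of cytokine and growth factor messages. It stood at 23.8, 27.4, 29.3 and 28.1 CPM in WT, and at 40.1, 50, 40.9 and 55.9 CPM in WT + TAM. In the mutants it stood at 60.7, 59.9, 63.1 and 53.2 CPM untreated and at 45.0, 58.5 and 49.3 CPM treated. All WT + TAM libraries exceeded all WT libraries, while the mutant groups overlapped. *Zfp36* rose in WT mice by 0.78 (SE 0.12, edgeR's adjusted p = 0.00975), with an estimate of -0.22 (SE 0.13) in Mtm1-/y, which gave an interaction of -1.0 (SE 0.17, adjusted p = 0.176). Its estimate lay between -1.11 and -0.90 in the 15 fits that each left out a library. On the opposite strand, *Zfp36* shares 1274 bases with *Gm44710* and *Jund* shares 919 with *Gm11175*. Likewise, *Scand1* shares 406 bases with *Cnbd2* and *Romo1* shares 148 with *Nfs1*. No strand setting was stated, so reads of such pairs may be mixed.

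*Jund*, a subunit of the AP-1 transcription factor, was at 5.17, 4.23, 6.15 and 5.37 CPM in WT and at 10.7, 14.7, 9.34 and 9.53 CPM in WT + TAM. It was at 32.3, 29.7, 19.5 and 16.3 CPM in Mtm1-/y and at 12.1, 16.7 and 15 CPM in Mtm1-/y + TAM. The treated groups thus lay between the untreated ones, above WT and mostly below Mtm1-/y. The interaction was -1.82 (SE 0.32). *Scand1*, a small SCAN domain protein, had a larger estimate of -2.22 (SE 0.40), from 1.13 to 1.41 CPM in WT, 2.03 to 3.19 CPM in WT + TAM, 3.87 to 9.48 CPM in Mtm1-/y and 2.59 to 2.89 CPM in Mtm1-/y + TAM. Neither pair of groups overlapped, and they were ordered in opposite directions. That pattern, with no overlap in either genotype and opposite directions, was found at 52 of 15533 genes (0.335%), and the same direction without overlap at 47 (0.303%).

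*Romo1*, a protein of the inner mitochondrial membrane that raises reactive oxygen species, belonged to these as well. It ranged from 24.4 to 29.1 CPM in WT, 35.7 to 46 CPM in WT + TAM, 54.8 to 70.5 CPM in Mtm1-/y and 46.4 to 49.7 CPM in Mtm1-/y + TAM. It rose in WT by 0.58 (SE 0.11, edgeR's adjusted p = 0.0333) and had an estimate of -0.31 (SE 0.12) in the mutant. *Nfix*, a transcription factor of the switch from embryonic to fetal myogenesis, had 151 to 201 CPM in WT, 229 to 268 CPM in WT + TAM, 242 to 291 CPM in Mtm1-/y and 206 to 230.0 CPM in Mtm1-/y + TAM. Its interaction was -0.79 (SE 0.15). *Nfix* shares 3838 bases with *G430095P16Rik* on the opposite strand, which had an interaction of -1.72 (SE 0.36), and no strand setting was stated, so the reads of the pair may be mixed.

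*Pcx* stood apart from this pattern, since the mutant did not start high. This gene encodes pyruvate carboxylase, which turns pyruvate into oxaloacetate for gluconeogenesis, lipogenesis and refilling of the citric acid cycle. It was at 97.9, 80.6, 73.5 and 75.5 CPM in WT and at 226, 317, 307 and 216 CPM in WT + TAM. It was at 85.6, 55.1, 60.1 and 54.4 CPM in Mtm1-/y and at 74.3, 71.5 and 101 CPM in Mtm1-/y + TAM. *Pcx* overlaps *Lrfn4* on the opposite strand by 3883 bases. *Pcx* rose in WT by 1.70 (SE 0.18, edgeR's adjusted p = 0.000549), and the mutant estimate was 0.37 (SE 0.19). The interaction was -1.33 (SE 0.26) and kept its sign in all 15 fits without a library (-1.51 to -1.16).

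*Lgals3*, the galectin of macrophages and regenerating fibres, rose in WT from 2.55 to 3.62 CPM to 5.05 to 10.8 CPM (1.36, SE 0.27, edgeR's adjusted p = 0.0452). It read 34.6, 17.4, 16.6 and 16.1 CPM in Mtm1-/y and 14.3, 17.4 and 14.4 CPM in Mtm1-/y + TAM. The 19 macrophage and inflammation genes tested of 20 listed, *Lgals3* among them, averaged 0.22 to 0.94 log2 CPM in WT, 0.51 to 1.29 in WT + TAM, 0.51 to 1.82 in Mtm1-/y and 1.49 to 2.09 in Mtm1-/y + TAM. Mtm1-/y replicate 1, the highest library for *Lgals3*, was the lowest of its group for the list, at 0.51. The other genes of the 12 were *Med16* (a subunit of Mediator), *Rasd1* (a small G protein induced by glucocorticoids), *Trir* (an exoribonuclease), *Rpl7a* and *Tpt1*. *Rpl7a*, a ribosomal protein, and *Tpt1*, a translationally controlled protein, have many near-identical processed copies in the genome, so reads may have been lost or split and their values are uncertain.

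Among the genes higher in the mutant, WT had the highest of the 4 group means at 8 of the 12 named here and Mtm1-/y + TAM at 4. Genes picked for a positive interaction tend to have either of these groups highest, so this describes the selection and is not a test. The 12 were the protein-coding genes of smallest p in this direction at a mean of at least 1 log2 CPM. Their estimates ran from 0.49 to 2.11. Their unadjusted p-values were 0.000248 to 0.00158 and their adjusted p-values 0.266 to 0.308 in edgeR's test. WT and WT + TAM values did not overlap at 12 of the 12, and the mutant groups did not overlap at 2, against 3.86% and 3.33% of all genes in the same directions. Of the 12, 5 fell in WT mice at an adjusted p under 0.05 and 0 were called in Mtm1-/y mice. They were *Aspa*, *Tiam1*, *Amd1*, *Fam92a* and *Pla2g16*. DESeq2 called 6 of the 12 for the interaction.

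*Amd1* encodes S-adenosylmethionine decarboxylase, which supplies the aminopropyl groups of spermidine and spermine. It was at 95.3, 86.1, 79.8 and 62.4 CPM in WT and at 24.3, 14.9, 15 and 14.9 CPM in WT + TAM. It was at 3.79, 10.6, 14.3 and 9.68 CPM in Mtm1-/y and at 10.3, 10.4 and 5.92 CPM in Mtm1-/y + TAM. WT alone was high, and the mutant groups overlapped fully. *Amd1* fell in WT by 2.23 on the log2 scale (SE 0.33, edgeR's adjusted p = 0.0121), against an estimate of -0.12 (SE 0.35) in the mutant. The interaction was 2.11 (SE 0.47, adjusted p = 0.266). Its near-identical relative *Amd2* had 0.0807 to 0.935 CPM and an interaction of 1.80 (SE 0.54), and reads of the pair can be misassigned.

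*Ighm*, the constant region of the IgM heavy chain, showed the same shape with a larger span. It was at 53.1, 71.6, 52.4 and 65.4 CPM in WT and at 4.21, 9.28, 2.46 and 2.33 CPM in WT + TAM. It was at 0.183, 2.46, 0.890 and 3.85 CPM in Mtm1-/y and at 1.54, 2.59 and 3.10 CPM in Mtm1-/y + TAM. *Ighm* fell in WT by 3.77 (SE 0.62, edgeR's adjusted p = 0.0296), with a mutant estimate of 0.41 (SE 0.69) and an interaction of 4.18 (SE 0.91, adjusted p = 0.266). Of 14 B and plasma cell genes listed, 6 passed the count filter and *Ighm* was the only member at an unadjusted p under 0.05. *Cd79b*, the signalling chain of the B cell receptor, had 0.123 to 0.664 CPM over all libraries and an interaction of 0.72 (SE 0.67), or 0.22 with Mtm1-/y replicate 1 and WT + TAM replicate 1 left out, and *Igha* had -1.46 (SE 1.13). In bulk tissue fewer cells of a type and less RNA per cell cannot be told apart.

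*Tph1*, tryptophan hydroxylase of peripheral serotonin synthesis, had 10.1, 5.69, 3.81 and 4.52 CPM in WT. With tamoxifen WT mice had 0.777, 1.58, 0.989 and 1.30 CPM. Both mutant groups resembled the treated wild type, with 0.497 to 1.34 CPM untreated and 0.900 to 1.54 CPM treated. *Tph1* fell in WT by 2.39 (SE 0.35, edgeR's adjusted p = 0.00942) and its interaction was 2.49 (SE 0.52). *Aspa*, which releases acetate from N-acetylaspartate, was also highest in WT, with a smaller range. It had 6.01 to 7.67 CPM in WT, 2.94 to 4.42 CPM in WT + TAM, 3.36 to 4.51 CPM in Mtm1-/y and 4.15 to 4.82 CPM in Mtm1-/y + TAM, and its interaction was 1.1 (SE 0.23). The plot of 8 genes by library shows these patterns beside those of *Zfp36*, *Jund*, *Romo1* and *Scand1*.

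**Figure D2:**
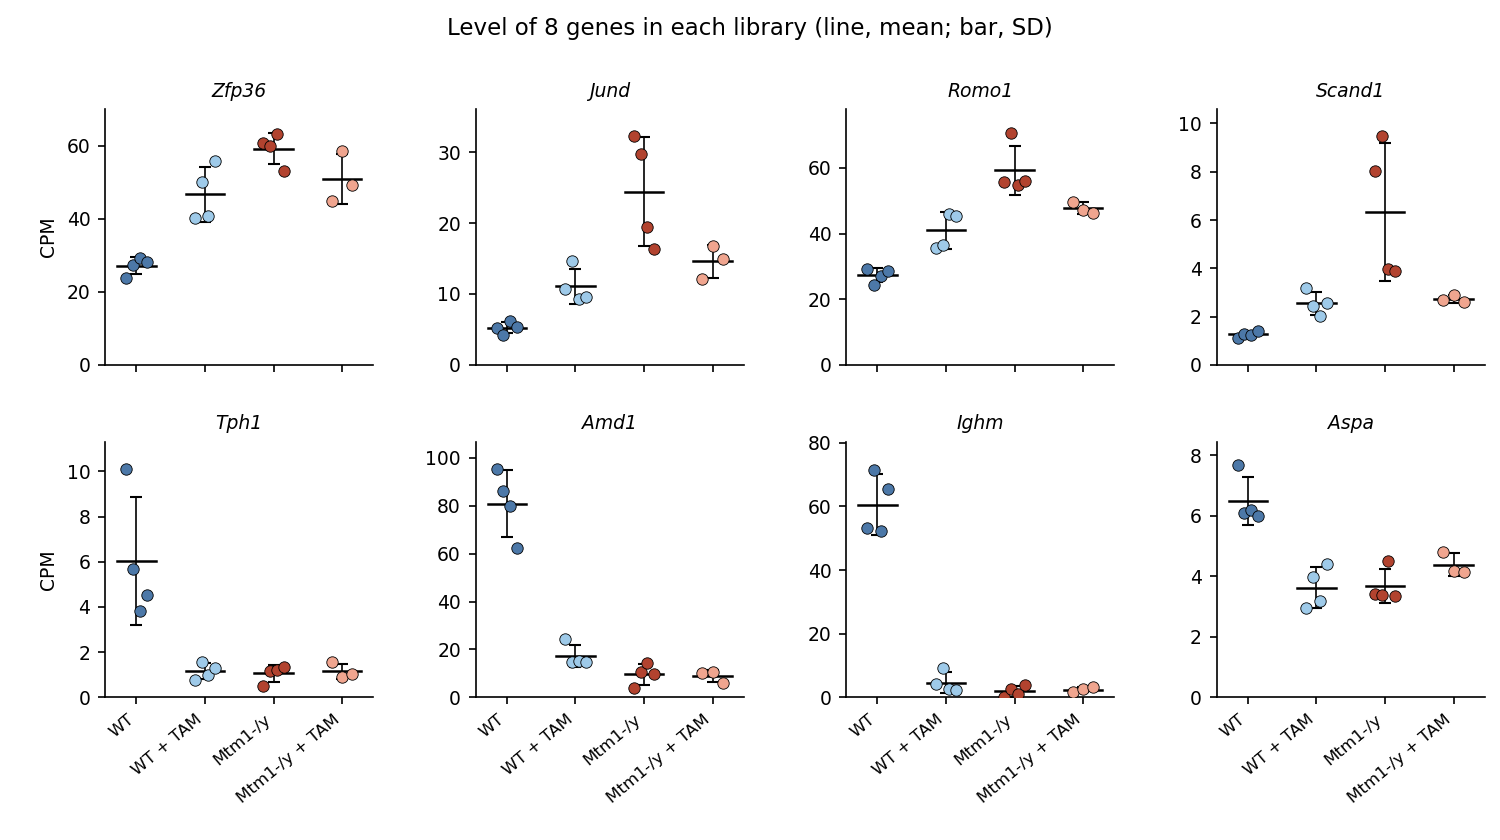
CPM in each library (points), group mean (line) and SD (bar) of 8 genes in the 4 groups, on linear axes from 0. In the upper row WT is lowest and Mtm1-/y highest with the treated groups between them, and in the lower row WT is high and the other 3 groups are low.

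*Tiam1*, which activates the small G protein Rac, fell in WT from 5.09 to 11.8 CPM to 2.25 to 3.23 CPM. It was at 0.759 to 1.05 CPM in Mtm1-/y and at 1.09 to 1.33 CPM in Mtm1-/y + TAM, without overlap. The interaction of *Tiam1* was 1.68 (SE 0.38). *Pla2g16*, a phospholipase of adipose tissue, was nearly constant in WT at 234 to 239 CPM and was at 110 to 141 CPM in WT + TAM, 131 to 233 CPM in Mtm1-/y and 161 to 184 CPM in Mtm1-/y + TAM. It fell in WT by 0.92 (SE 0.14, edgeR's adjusted p = 0.00975). *Fam92a*, a BAR domain protein, also fell in WT, by 0.59 (SE 0.11, adjusted p = 0.0333), and was at 7.43 to 8.75 CPM in the mutant libraries, as in untreated WT at 7.27 to 8.54 CPM.

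*Cox17* and *Wdr77*, like *Fam92a*, were not low in the mutants. *Cox17*, the copper chaperone of cytochrome c oxidase, had 10.4 to 12.3 CPM in WT, 7.12 to 8.87 CPM in WT + TAM, 11.9 to 14.8 CPM in Mtm1-/y and 14.2 to 15.8 CPM in Mtm1-/y + TAM (interaction 0.60, SE 0.15). *Wdr77*, a partner of the arginine methyltransferase Prmt5, had 19.3 to 23.0 CPM in WT, 14.8 to 17.4 CPM in WT + TAM and 20.0 to 24.5 CPM over both mutant groups (interaction 0.49, SE 0.12). *Ddit3*, the stress factor CHOP, had 11.8 to 14.5 CPM in WT, 9.24 to 10.7 CPM in WT + TAM, 6.45 to 7.82 CPM in Mtm1-/y and 7.42 to 9.74 CPM in Mtm1-/y + TAM (interaction 0.67, SE 0.16). *Cox17* and *Wdr77* overlap other annotated genes, so reads may be shared. *Mmd*, *Dtx3l*, *Pdzd11* and *Zfp748* made up the 12.

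Like every other gene tested, genes tied to the disease or to the drug showed no interaction past the threshold. The interaction of *Mtm1* was -0.04 (95% interval -0.39 to 0.31) and that of *Esr1*, the oestrogen receptor that tamoxifen binds, was 0.07 (SE 0.20). *Dnm2*, the membrane-cutting dynamin, had -0.12 (SE 0.11), *Bin1*, a membrane-bending protein of the triad, had 0.17 (SE 0.20), and embryonic myosin *Myh3* had -0.25 (SE 0.51). *Pgr*, the progesterone receptor and an oestrogen target, was under the count filter, with counts of 2, 0, 0 and 0 in WT and of 5, 17, 7 and 7 in WT + TAM. It had 0 counts in all 4 Mtm1-/y libraries and 0, 7 and 5 in Mtm1-/y + TAM, so a difference between the genotypes was not detectable at this depth.

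*Lamb3* and *Cyfip2* were the genes called in both genotypes, both upward. *Lamb3*, a chain of laminin 332, was at 2.08 to 3.12 CPM in WT, 3.84 to 6.10 CPM in WT + TAM, 1.94 to 3.15 CPM in Mtm1-/y and 6.25 to 8.53 CPM in Mtm1-/y + TAM. It rose by 1.03 (SE 0.20, edgeR's adjusted p = 0.0381) in WT and by 1.65 (SE 0.21, adjusted p = 0.0132) in the mutant, and the difference of 0.62 (SE 0.29) had an adjusted p of 0.468. *Cyfip2*, a subunit of the actin-regulating WAVE complex, was at 0.675 to 1.13 CPM in untreated WT mice and at 1.84, 14.3, 7.21 and 6.29 CPM in treated ones. In the mutants it went from 1.23 to 2.78 CPM untreated to 18.4 to 28.2 CPM treated. It rose by 2.88 (SE 0.49) and 3.65 (SE 0.49), and the difference was 0.78 (SE 0.68), or 0.33 with WT + TAM replicate 1 and Mtm1-/y replicate 1 left out. *Lamb3* overlaps *Hsd11b1* and *G0s2* on the opposite strand.

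*Flrt1*, an adhesion protein that overlaps *Macrod1* on the opposite strand by 13729 bases, spread widely within the treated groups. It was at 0.640, 0.790, 0.575 and 1.29 CPM in WT and at 3.19, 108, 139 and 111 CPM in WT + TAM. It was at 0.262, 1.05, 0.794 and 1.79 CPM in Mtm1-/y and at 1.33, 3.68 and 23.7 CPM in Mtm1-/y + TAM. *Flrt1* rose in WT by 6.75 (SE 1.19, edgeR's adjusted p = 0.0362), with 3.30 (SE 1.12) in the mutant, and the interaction of -3.45 (SE 1.61) had an adjusted p of 0.476. WT + TAM replicate 1 lay far below the other 3 libraries of its group, and Mtm1-/y + TAM replicate 3 far above the rest of its own. The interaction was -3.84 without the former and -5.34 without the latter, and neither fit called the gene.

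*Sln* moved with 1 library and *Mstn* with 2. *Sln*, the sarcolipin that slows the calcium pump, was at 1750.0, 361, 303 and 304 CPM in Mtm1-/y, where replicate 1 stood alone. Its interaction was -1.59 (SE 0.80) with all libraries and -0.51 without that replicate. *Mstn*, myostatin, was at 147, 50.5, 57.3 and 55.4 CPM in WT + TAM, with replicate 1 high, and at 11.6, 6.94, 21.3 and 7.41 CPM in Mtm1-/y, with replicate 3 high. The interaction of *Mstn* was -0.81 (SE 0.59), -0.31 without the former library and -0.38 without the latter.

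Leaving out each library in turn tested how far the result of 0 calls rested on a single mouse. EdgeR called 0 genes in 13 of the 15 fits. Without WT + TAM replicate 1 it called 7 genes, namely *Mthfd2*, *Mgst1*, *Dkk3* and *Gm9903* as higher in the mutant and *Zfp36*, *Romo1* and *H2-K1* as lower. Without Mtm1-/y replicate 4 it called 3, namely *Slc7a8*, *Scand1* and *Jund*, all lower. No gene was called in more than 1 of the 15 fits. With Mtm1-/y replicate 1 and WT + TAM replicate 1 both left out it called 14, and *Zfp36*, *Romo1*, *H2-K1*, *Mgst1*, *Mthfd2*, *Dkk3*, *Gm9903*, *Amd1* and *Xbp1* were among them.

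*Mgst1*, a microsomal glutathione transferase that detoxifies lipophilic compounds, showed what the left-out library changed. It was at 33.1, 24.7, 25.6 and 22.3 CPM in WT and at 19.3, 6.73, 4.37 and 6.48 CPM in WT + TAM. In the mutant libraries it was at 6.17 to 9.11 CPM. Replicate 1 lay between the other treated libraries and the untreated ones, and without it the interaction moved from 1.39 (SE 0.51, edgeR's adjusted p = 0.406) to 2.06 (adjusted p = 0.00891). *Dkk3*, a secreted Wnt modulator, was at 16.3 CPM in the same library against 1.43 to 2.25 CPM in the rest of the group, and its estimate moved from 0.98 to 2.48.

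*Mthfd2*, the mitochondrial folate enzyme of proliferating and stressed cells, differed between the mutant groups more than between the WT groups. It was at 4.50, 3.63, 3.37 and 5.53 CPM in Mtm1-/y and at 10.5, 8.92 and 9.09 CPM in Mtm1-/y + TAM, without overlap. In WT it was at 6.40 to 6.80 CPM, and in WT + TAM at 12.1, 4.54, 6.15 and 5.34 CPM, with replicate 1 high. The interaction was 1.04 (SE 0.36), or 1.43 without that library. *H2-K1*, a class I histocompatibility heavy chain, had the reverse shape, at 44.3, 80.0, 77.1 and 68.8 CPM in WT + TAM against 32.4 to 46.3 CPM in WT and 39.9 to 55.5 CPM in the mutants. Class I genes are similar in sequence, so reads can be shared among them. *Slc7a8*, a transporter of large neutral amino acids, was at 34.5, 21.5, 31.8 and 9.23 CPM in Mtm1-/y, where replicate 4 was low, and at 7.63 to 11 CPM in Mtm1-/y + TAM.

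**Figure D3:**
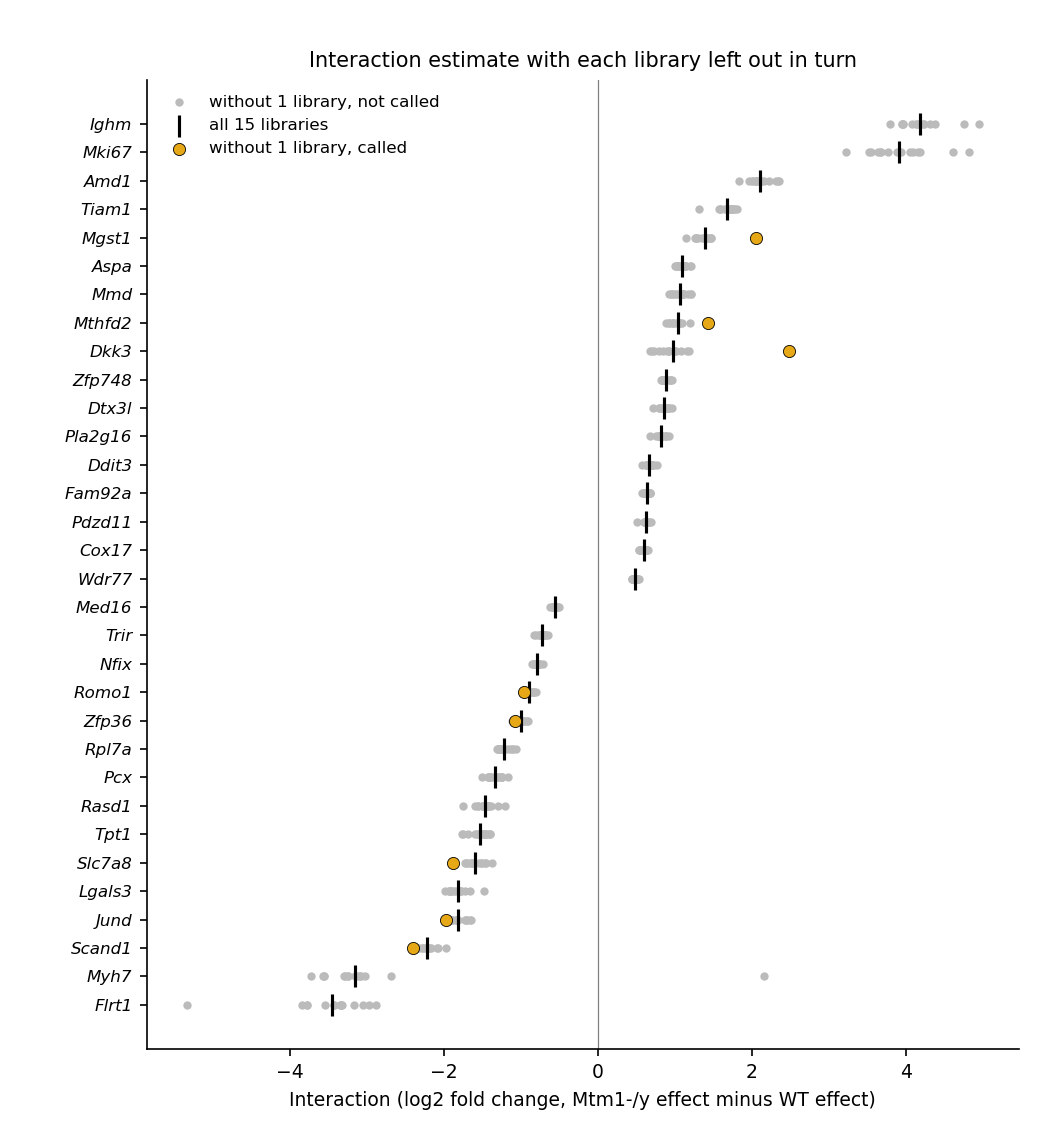
Interaction estimate (log2 fold change, mutant effect minus WT effect) of 32 genes with all 15 libraries (black bar) and with each library left out (points, gold where called at an adjusted p under 0.05). All 24 protein-coding genes of smallest p at a mean of at least 1 log2 CPM kept their sign in the 15 fits. *Dkk3* and *Mgst1* each have a called point apart from the rest, and *Myh7* has a point on the other side of 0.

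Gene lists were described by the number of members at an unadjusted p under 0.05 and by their median interaction, beside -0.007 for all genes tested. Cell cycle genes were the list with the highest median. They drive DNA replication and mitosis, and in adult muscle they come mainly from dividing satellite, immune and stromal cells. Of 23 listed, 21 were tested, with a median interaction of 1.60, a median of -1.24 in WT and a median of 0.44 in Mtm1-/y. At an unadjusted p under 0.05, 13 of the 21 (61.9%) had a positive interaction, against 4.69% of all genes, and that of *Ube2c* was negative. Under tamoxifen 12 members fell and 1 rose in WT at an unadjusted p under 0.05 (5.28% and 6.03% of all genes). In Mtm1-/y 0 rose and 1 fell (2.65% and 2.9% of all genes). No member passed the adjusted threshold in edgeR's test, and DESeq2 called only *Ube2c* of the list. Outside the list and the naming rule, DESeq2 called the mitotic genes *Pbk* (4.12), *Prc1* (3.48), *Ckap2* (3.14), *Cdca8* (2.94) and *Mad2l1* (1.53). *Ccnk* (-0.88) and *Rgcc* (-1.3) went the other way, and all were chosen after their values were seen.

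The level behind these values was low. *Mki67*, the nuclear protein Ki-67, was at 2.53, 3.71, 8.50 and 8.60 CPM in WT and at 1.19, 3.47, 0.362 and 0.686 CPM in WT + TAM. It was at 0.0262, 1.01, 0.286 and 0.426 CPM in Mtm1-/y, the lowest of these being 1 count, and at 0.689, 2.46 and 1.06 CPM in Mtm1-/y + TAM. The groups overlapped in both genotypes, and the interaction was 3.91 (SE 1.14, edgeR's adjusted p = 0.357). *Birc5*, survivin, had an interaction of 2.36 (SE 0.64) from 6 to 41 counts a library, and *Ccne1*, cyclin E1, had 1.61 (SE 0.41) from 6 to 29 counts.

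By library, the mean over the 21 genes was 0.85 to 1.70 log2 CPM in WT, -0.15 to 0.98 in WT + TAM, -0.54 to 0.13 in Mtm1-/y and -0.05 to 0.70 in Mtm1-/y + TAM. Mtm1-/y + TAM replicate 2 was the highest mutant library, and without it the count of members higher in the mutant was 4 in place of 13, with a median of 1.27. In the other fits without a library the count was 9 to 13. The same library was also the highest of its group for macrophage genes, at 2.09 log2 CPM against 1.49 and 1.74, and the part of those cells in the cell cycle values was not tested.

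The promoters of *Mki67* and *Ube2c*, which had opposite interactions, are shown because cell cycle genes share a CCAAT box (CCAAT, or ATTGG on the other strand) and a cell cycle homology region (CHR, TTTGAA, or TTCAAA on the other strand). The sequences are the 250 bases before the start that RefSeq gives on GRCm38.p6, read 5′ to 3′ along the gene, with both motifs in capitals. *Mki67* lies at chr7:135716380-135716629 on the minus strand and *Ube2c* at chr2:164769679-164769928 on the plus strand.
Mki67: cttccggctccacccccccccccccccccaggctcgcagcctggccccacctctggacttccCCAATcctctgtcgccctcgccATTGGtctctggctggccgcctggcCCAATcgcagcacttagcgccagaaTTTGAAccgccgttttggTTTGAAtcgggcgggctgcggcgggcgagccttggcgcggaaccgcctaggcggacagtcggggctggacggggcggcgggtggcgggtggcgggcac
Ube2c: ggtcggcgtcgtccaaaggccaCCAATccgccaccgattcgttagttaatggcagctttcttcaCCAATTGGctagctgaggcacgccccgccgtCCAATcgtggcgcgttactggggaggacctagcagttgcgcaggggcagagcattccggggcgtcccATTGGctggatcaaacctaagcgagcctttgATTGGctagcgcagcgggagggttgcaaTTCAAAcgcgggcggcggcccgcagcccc
The CCAAT box was found in 15 of the 19 cell cycle genes with a promoter in the table (78.9%), against 35.8% of 11126 promoters of genes tested, and the CHR in 6 (31.6%) against 10.4%. Both promoters hold both motifs, so these letters did not separate the gene that was lower from the gene that was higher. *Ube2c*, the ubiquitin-conjugating enzyme of the anaphase-promoting complex, had 5.05 to 9.27 CPM in WT, 8.82 to 15.9 CPM in WT + TAM, 5.38 to 14.8 CPM in Mtm1-/y and 5.11 to 5.88 CPM in Mtm1-/y + TAM. Its interaction was -1.68 (SE 0.39). It overlaps *Tnnc2*, the abundant fast troponin C, by 1662 bases on the opposite strand, and without a stated strand setting the reads of the pair cannot be told apart.

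Immediate early genes leaned the other way. They encode transcription factors and feedback inhibitors that respond to growth factors, stress and contraction within minutes. All 27 listed were tested, with a median interaction of -0.73, a median of 0.52 in WT and a median of -0.34 in Mtm1-/y. In all, 26 of 27 estimates were below 0, against 50.8% of all genes. At an unadjusted p under 0.05, 14 (51.9%) were lower in the mutant, against 5.94% of all genes, and *Myc* was higher. Without each library in turn the median was -1.0 to -0.66 and 10 to 15 members were lower. DESeq2 called 3 members at an adjusted p under 0.05, and edgeR called 0.

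*Maff*, a small Maf factor of the stress response, was at 2.51 to 3.45 CPM in WT and at 3.64, 4.38, 7.21 and 13 CPM in WT + TAM. It was at 23.7, 9.28, 8.48 and 6.11 CPM in Mtm1-/y and at 5.25 to 5.87 CPM in Mtm1-/y + TAM, so that neither pair of groups overlapped and the directions were opposite (interaction -2.39, SE 0.64). *Jun*, the founding AP-1 subunit, was at 30.1 to 39.0 CPM in WT, 51.6 to 63.9 CPM in WT + TAM and 41.7 to 59.7 CPM over both mutant groups (interaction -0.71, SE 0.20). *Myc*, the growth-promoting factor, had 2.17 to 3.55 CPM in WT, 0.725 to 2.49 CPM in WT + TAM, 2.89 to 4.73 CPM in Mtm1-/y and 2.54 to 4.77 CPM in Mtm1-/y + TAM (interaction 1.08, SE 0.48, or 1.71 without both libraries that stood apart). By library the mean of the 27 genes was 2.87 to 3.31 log2 CPM in WT, 3.28 to 3.74 in WT + TAM, 3.89 to 4.39 in Mtm1-/y and 3.70 to 3.81 in Mtm1-/y + TAM. The treated groups lay closer to each other than the untreated groups did.

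The promoter of *Zfp36*, the member with the smallest p, is shown with its match to a CArG box, the core of a serum response element, in capitals. The sequence is the 250 bases before the RefSeq start (GRCm38.p6, chr7:28379229-28379478, minus strand). This window lies inside the gene as GENCODE M21 places it (chr7:28376784-28380253), with a start further upstream.
Zfp36: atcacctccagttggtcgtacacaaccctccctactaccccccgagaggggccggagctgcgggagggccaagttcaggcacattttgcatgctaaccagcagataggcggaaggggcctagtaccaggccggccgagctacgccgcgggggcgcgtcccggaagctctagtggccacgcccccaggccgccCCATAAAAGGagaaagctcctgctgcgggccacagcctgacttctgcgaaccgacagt
It was the only CArG match among the 22 immediate early genes with a promoter in the table (4.55%), against 1.18% of tested genes. The cyclic AMP response element TGACGTCA was in 2 of the 22 (9.09%), those of *Dusp1* and *Btg2*, against 2.61%. The palindromic oestrogen response element was in 0 promoters of the genes tested, and 17 of all 27025 promoters held it (0.0629%). A match describes letters in this window, and says nothing of binding.

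Atrophy genes, which encode ubiquitin ligases, Foxo factors, metallothioneins and other genes that rise when muscle loses mass, had the lowest median. Of 20 tested the median interaction was -0.80, with 0.32 in WT and -0.47 in Mtm1-/y. At an unadjusted p under 0.05, 11 (55.0%) were lower in the mutant, against 5.94% of all genes, and 0 were higher, against 4.69%. Without each library in turn 8 to 12 were lower, and the median was -0.98 to -0.48, the latter without Mtm1-/y replicate 1. DESeq2 called 4 members and edgeR 0.

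*Ddit4*, an inhibitor of mTORC1 induced by glucocorticoids and hypoxia, was at 59.5, 66.7, 63.0 and 49.8 CPM in WT and at 172, 61.6, 101 and 206 CPM in WT + TAM. It was at 323, 177, 143 and 74.9 CPM in Mtm1-/y and at 67.8, 71.5 and 65.7 CPM in Mtm1-/y + TAM. The mutant groups did not overlap, and the treated mutants were close to untreated WT (interaction -2.57, SE 0.60, edgeR's adjusted p = 0.300). *Foxo1*, a driver of ubiquitin ligase genes, was at 18.7 to 22.5 CPM in WT, 22.5 to 51.4 CPM in WT + TAM, 20.3 to 125 CPM in Mtm1-/y and 25.8 to 28.9 CPM in Mtm1-/y + TAM (interaction -2.16, SE 0.62). Its close relative *Foxo3* had -1.60 (SE 0.43) and *Klf15*, a glucocorticoid target of amino acid breakdown, had -1.98 (SE 0.56). In each of these 4 genes Mtm1-/y replicate 1 was the highest library and Mtm1-/y replicate 4 the lowest of its group. Without Mtm1-/y replicate 1 and WT + TAM replicate 1 their estimates were -1.98, -1.53, -1.21 and -1.31, in the order *Ddit4*, *Foxo1*, *Foxo3* and *Klf15*.

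**Figure D4:**
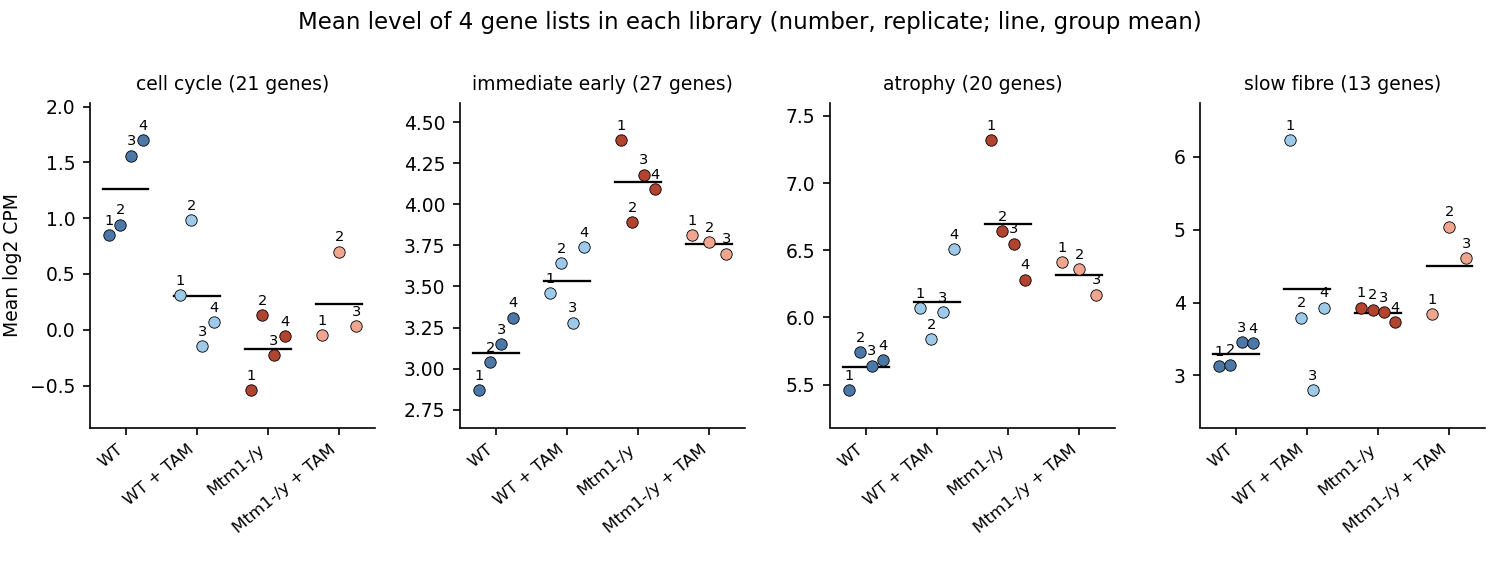
Mean log2 CPM over the genes of 4 lists in each library (points, numbered by replicate) with the group mean (line). For immediate early and atrophy genes the treated groups lie between WT and Mtm1-/y, for cell cycle genes WT is highest and Mtm1-/y lowest, and for slow fibre genes WT + TAM replicate 1 stands alone at 6.23.

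The slow fibre list shows a value set by a single library. Its 13 genes had a median interaction of -0.76, with 0 at an unadjusted p under 0.05, and the median was 0.28 without WT + TAM replicate 1. *Myh7*, slow myosin, was at 439, 3.42, 1.45 and 3.70 CPM in WT + TAM against 1.46 to 2.80 CPM in WT, and its interaction was -3.15 (SE 2.15) with that library and 2.16 without it. It was at 3.09 to 4.66 CPM in Mtm1-/y and at 4.61, 26 and 37.7 CPM in Mtm1-/y + TAM. *Tnnc1*, *Tnni1* and *Tnnt1*, the slow troponins, changed sign in the same way.

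Adipocyte and lipogenic genes had a median of -0.34 over 20 tested, and of 0.49 without WT + TAM replicate 1. In the mutant 3 were lower, against 5.94% of all genes, and 1 was higher, against 4.69%, at an unadjusted p under 0.05. Without that library 3 were lower and 4 higher. *Srebf1*, the master regulator of fatty acid synthesis, had 39.6 to 53.5 CPM in WT, 55.4 to 97.3 CPM in WT + TAM, 32.2 to 80.4 CPM in Mtm1-/y and 25.5 to 31.6 CPM in Mtm1-/y + TAM, so neither pair of groups overlapped (interaction -1.28, SE 0.39). *Car3*, a carbonic anhydrase of fat and slow fibres, had -1.59 (SE 0.50), or -0.87 without both libraries that stood apart, and *Plin4*, a lipid droplet protein of fat and muscle, had -1.92 (SE 0.66). *Thrsp*, a lipogenic factor, was the member higher in the mutant, at 0.59 (SE 0.27).

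Fatty acid oxidation genes had a median of 0.28 over 22 tested, with 4 higher (4.69% of all genes) and 1 lower (5.94% of all genes) at an unadjusted p under 0.05. The counts were set by single libraries, since 12 were higher without WT + TAM replicate 4 and 0 without Mtm1-/y replicate 1. *Fabp3*, which carries fatty acids in the cytosol, was at 79.2, 83.8, 90.2 and 74.0 CPM in WT, at 34.6, 69.5, 51.2 and 102 CPM in WT + TAM, at 41.2 to 59.9 CPM in Mtm1-/y and at 66.8 to 79.1 CPM in Mtm1-/y + TAM. The mutant groups did not overlap, and the treated mutants came near untreated WT (interaction 0.88, SE 0.35). *Cpt1b*, the entry step of fatty acids into mitochondria, was the member lower in the mutant, at -0.95 (SE 0.43). Mtm1-/y replicate 1 was at 22.6 CPM for *Cpt1b* against 6.86 to 11.2 CPM in the rest of its group, and without it the interaction was -0.43. The count of lower members was 0 to 1 over the 15 fits without a library. It was 0 without Mtm1-/y replicate 1, and also without WT replicate 2, 3 or 4.

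Cytosolic ribosomal protein genes had a median of -0.20 over 34 tested, with 6 lower and 3 higher at an unadjusted p under 0.05, against 5.94% and 4.69% of all genes. *Rplp1*, a protein of the ribosomal stalk, had 128 to 157 CPM in WT, 165 to 204 CPM in WT + TAM, 210.0 to 224 CPM in Mtm1-/y and 182 to 221 CPM in Mtm1-/y + TAM (interaction -0.54, SE 0.15). *Rps2* had -1.46 (SE 0.34), while *Rpl23* had 0.37 (SE 0.12), with no overlap in either genotype. Processed copies make the values of this family uncertain.

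Genes of the Atf4 and unfolded protein response split. *Ddit3*, *Mthfd2* and *Asns*, the asparagine synthetase, were higher in the mutant at an unadjusted p under 0.05, while *Atf5* and *Xbp1* were lower, out of 18 tested and against 4.69% and 5.94% of all genes. *Asns* lies outside the naming rule and was chosen after its values were seen. *Atf5*, a factor of the mitochondrial stress response, rose in WT from 46.9 to 55.7 CPM to 67.2 to 96.2 CPM, by 0.69 (SE 0.10, edgeR's adjusted p = 0.00942). It was at 50.7 to 55.2 CPM in Mtm1-/y and at 59.7 to 68.9 CPM in Mtm1-/y + TAM, so all treated libraries lay above untreated ones in both genotypes, and its interaction was -0.43 (SE 0.15). *Xbp1*, the factor spliced by Ire1 and also an oestrogen target, rose in WT by 0.83 (SE 0.15, adjusted p = 0.0296), with an estimate of 0.22 (SE 0.16) in the mutant. The oestrogen list, of which 13 of 20 genes were tested, had a median of 0.03, with 1 member higher and 2 lower, against 4.69% and 5.94% of all genes.

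Polyamine genes had a median of -0.01 over 12 tested. *Amd1* and *Amd2*, whose reads can be misassigned, were the 2 members with a positive interaction at an unadjusted p under 0.05 (4.69% of all genes). For 2 others it was negative (5.94% of all genes). These latter 2 members act against polyamine accumulation, while of the 12 estimates in the list 6 were above 0 and 6 below. *Sat1*, which acetylates spermidine for breakdown and export, had -0.50 (SE 0.17), and *Oaz1*, the antizyme that directs ornithine decarboxylase to the proteasome, had -0.38 (SE 0.14). *Oaz1* was at 31.8 to 35.0 CPM in WT, 37.0 to 46.4 CPM in WT + TAM and 42.4 to 57.4 CPM in the mutants.

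The other 24 lists with a tested member had median interactions from -0.52 (tamoxifen and xenobiotic metabolism) to 0.37 (interferon response). Among their 452 tested members 11 were higher (2.43%) and 26 lower (5.75%) at an unadjusted p under 0.05, which was at or under the share of all genes. All 16 peripheral nerve and Schwann cell genes had estimates below 0, with a median of -0.38 and 1 member at an unadjusted p under 0.05, or 4 without WT + TAM replicate 3. Their summed level was highest in WT + TAM replicate 1, at 239 CPM against 92.7 to 167 CPM in the other 14 libraries. Interferon response genes had 16 of 19 estimates above 0, against 49.2% of all genes, with 1 member at an unadjusted p under 0.05. No T and NK cell gene of 12 passed the count filter. The myotubularin family (median -0.14), membrane remodelling and triad genes (-0.01), calcium handling genes (-0.18) and the mitochondrial genome (0.15) had at most 2 members at an unadjusted p under 0.05.

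**Figure D5:**
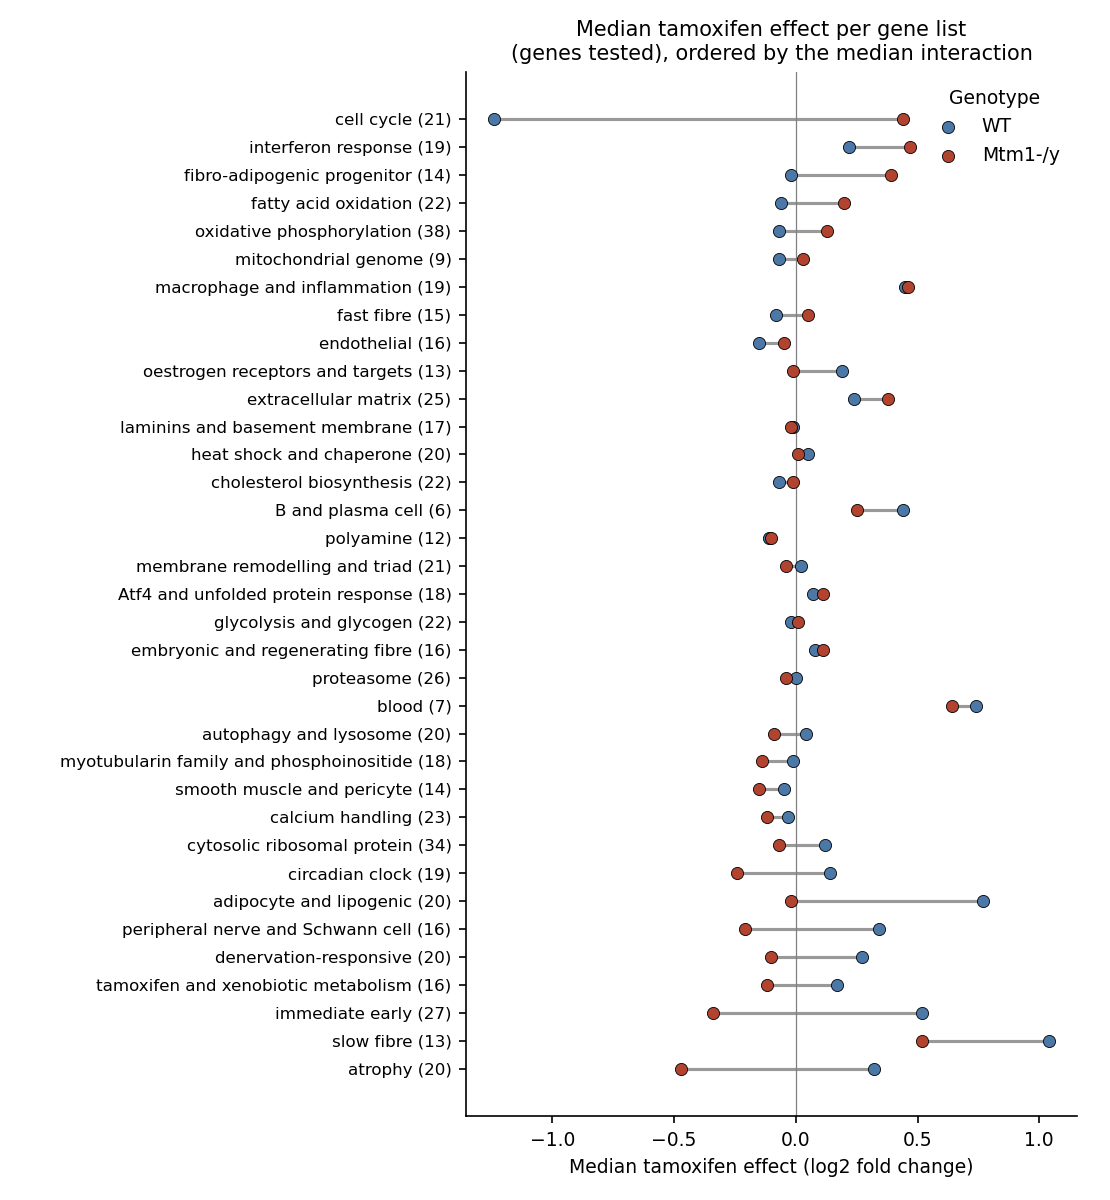
Median tamoxifen effect (log2 fold change) in WT and in Mtm1-/y over the tested genes of 35 lists (number of genes in parentheses), ordered by the median interaction. Cell cycle genes have the widest gap, at -1.24 and 0.44, and atrophy and immediate early genes have medians of opposite sign in the 2 genotypes.

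Base composition moved with the interaction. The transcripts of the genes lower in the mutant at an unadjusted p under 0.05 had a median GC content of 53.1%, those higher in the mutant 47.6%, and all genes tested 49.8%. Across genes, each library's deviation from the gene's mean level correlated with GC content at -0.198 to -0.120 in WT, -0.0508 to 0.0156 in WT + TAM, -0.0398 to 0.223 in Mtm1-/y and -0.0319 to 0.161 in Mtm1-/y + TAM. With GC content and transcript length as offsets, 0 genes were called and 1510 were at an unadjusted p under 0.05. The interaction was then -1.04 for *Zfp36*, -1.52 for *Jund*, -0.74 for *Romo1* and 1.99 for *Amd1*, and the medians were 1.53 for cell cycle, -0.78 for immediate early and -0.75 for atrophy genes.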

How the data were processed

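The libraries (TRI Reagent, TruSeq Stranded mRNA) came from 15 tibialis anterior muscles. The authors deposited raw counts of reads per gene for all 15 in a single table of 30672 genes. The submitters' processing notes list STAR 2.5.3a, HTSeq 0.6.1p1, Bowtie2 2.2.8 and cutadapt 1.10, and the builds mm10 and GRCm38. For the annotation release and the strand setting, nothing was given in the sources used here. Gene names and coordinates were taken from GENCODE M21 (GRCm38). Beyond replicate numbers the labels say nothing of how the mice relate, so p-values measure only the spread between these samples.

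Genes were kept by edgeR's filterByExpr (minimum count 10), which left 15533, and 582 genes had no count in any library. A quasi-likelihood model with robust dispersion, TMM factors and the 4 groups was fitted in edgeR 4.0.16 (R 4.3.3) to all 15 libraries, with 11 residual degrees of freedom and a biological coefficient of variation of 20.8%. The interaction was the contrast of the mutant and WT effects, with Benjamini-Hochberg adjustment over all genes and a threshold of 0.05. Effects are log2 fold changes, SE is the standard error, and CPM values, summed levels included, use TMM-scaled totals. Log2 CPM used a prior count of 2. By plain library totals, without TMM factors, a count was worth 0.0218 to 0.0554 CPM. On that scale a gene at 0 could lie below 0.0655 to 0.166 CPM (3 counts, counting error only).

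DESeq2 1.42.0, limma 3.58.1 (voom), other scalings, other filters, a replicate block, fits without libraries, and offsets for GC content and length (added after seeing the data) were alternatives. The script was tested on simulated data. Same-numbered libraries of different groups were not paired by the labels. Genes were named if they were among 14 fixed genes, the 12 protein-coding genes of smallest p in each direction at a mean of at least 1 log2 CPM, calls in any fit without a library, up to 4 members of each list described by p, or up to 10 DESeq2 calls among the 100 smallest edgeR p-values. The genes and lists were chosen with earlier results of these data known.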

Additional observations from a re-analysis of the deposited data

Results flagged for a closer look

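In the groups of 4 libraries, 83 named genes and 35 lists were searched on the log2 CPM scale for a library apart from the rest. A library was flagged if its gap to its nearest neighbour took up more than 0.829 of the group's range. Chance gives this in about 1 in 20 groups. In all 26 were found over 3 groups for each gene or list, and at that rate chance alone would give some of them. Their shares of the range are given here without explanation.

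WT + TAM replicate 1 stood apart for *Amd1* (0.978), *Flrt1* (0.932), *Mstn* (0.881), *Gm9903* (0.87) and *Myh7* (0.839). The same library stood apart for the lists of Atf4 and unfolded protein response (0.927), polyamine (0.905) and endothelial genes (0.896). Mtm1-/y replicate 1 stood apart for *Sln* (0.899), *Lgals3* (0.897), *Tph1* (0.856) and the membrane remodelling and triad list (0.906).

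In WT, replicate 1 stood apart for *Mmd* (0.887), *Aspa* (0.878), *Atp13a5* (0.87) and *Igha* (0.857), replicate 3 for *Trir* (0.888), and replicate 4 for *Cyfip2* (0.956) and *Dnm2* (0.901). In WT + TAM, replicate 3 stood apart for *Cox17* (0.849) and *Necab1* (0.838). In Mtm1-/y, replicate 2 stood apart for *Romo1* (0.906) and *Tnni1* (0.829), replicate 3 for *Aspa* (0.933) and the mitochondrial genome list (0.884), and replicate 4 for *Gper1* (0.925).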

How the results depend on the processing

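EdgeR called 0 genes for the interaction with all libraries, and also with RLE or upper-quartile factors, a stricter count filter, no robust dispersion, the replicate block, GC and length offsets, or a threshold of 0.10, as did limma-voom. It called 2 with no filter, DESeq2 called 74, limma-voom with quality weights 6, edgeR without both Mtm1-/y replicate 1 and WT + TAM replicate 1 called 14, and edgeR without each library 0 to 7. The genes at an unadjusted p under 0.05, 1650 with all libraries, numbered 1203 to 2066 over the alternatives. The 48 calls in WT became 298 with DESeq2, 530 with quality weights, 347 without both libraries, 113 at 0.10 and 11 to 143 without each library (lowest without WT replicate 1, highest without Mtm1-/y replicate 1). The 2 calls in Mtm1-/y became 1 with no filter, 4 with DESeq2, 5 with quality weights, 7 without both libraries and 0 to 5 without each library. The cause was not tested.

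Of the 83 named genes, 7 changed sign under some alternative. With quality weights the interaction was -0.03 for *Esr1*, 0.54 for *Myh3*, 0.47 for *Tnnc1*, 0.06 for *Tnni1*, 1.76 for *Myh7* and 0.94 for *Tnnt1*. Without both libraries it was -0.10, 0.12, 0.53, 0.24, 2.25 and 1.02 in the same order. Limma-voom gave 0.02 for *Myh3* and 0.35 for *Myh7*, upper-quartile factors gave 0 for *Mtm1*, and the linear scale gave 10.5 CPM for *Myh3*. Without each library the range was -0.12 to 0.05 for *Mtm1*, -0.08 to 0.17 for *Esr1*, -0.48 to 0.06 for *Myh3*, -3.22 to 0.58 for *Tnnc1*, -3.05 to 0.27 for *Tnni1*, -3.72 to 2.16 for *Myh7* and -2.66 to 0.90 for *Tnnt1*.

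Deviations of same-numbered libraries of different groups correlated at -0.113 to 0.306, over 0.1 in 6 of 21 pairs. Libraries with different numbers correlated at -0.338 to 0.214, over 0.1 in 10 of 63 pairs. In all, 5 of 15 libraries correlated best with their own number. Whether same-numbered mice were related was not tested. With the replicate block 1692 genes were at an unadjusted p under 0.05 and 33 were called in WT.

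With 3 or 4 mice a group and a median SE of 0.264, small interactions could not be resolved, and low genes such as *Mki67* rest on few counts.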

Other observations

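Some genes outside the lists described were among the DESeq2 calls with the smallest edgeR p-values. *Necab1*, a neuronal calcium-binding protein, was at 0.418 to 0.909 CPM in WT, 0.265 to 0.496 CPM in WT + TAM, 0.0785 to 0.191 CPM in Mtm1-/y and 0.371 to 0.821 CPM in Mtm1-/y + TAM. The mutant groups did not overlap, and the interaction was 2.74. *Gm32200* was at 1.29 to 1.74 CPM in WT, 0.286 to 0.555 CPM in WT + TAM and 0.445 to 1.59 CPM in the mutants, with an interaction of 2.25.

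Denervation-responsive genes had a median interaction of -0.44, with 16 of 20 estimates below 0, against 50.8% of all genes, and 1 lower in the mutant at an unadjusted p under 0.05. Without each library in turn the median was -0.56 to -0.23 and 1 to 7 members were lower, the 7 without Mtm1-/y replicate 3. Their mean level was 3.49 to 3.93 log2 CPM in the wild-type libraries and 5.14 to 6.04 in the mutant libraries.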
